A study of Mus musculus with 12 samples.

Results

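Among 20409 protein-coding mouse genes, 10 members of the PARP family were followed through 3 ORFtag screens in mouse embryonic stem cells: Parp14, Parp9, Zc3hav1, Parp12, Parp10, Parp1, Parp2, Parp3, Parp4 and Parp8. The members were taken by gene name and all 10 were found. The family was chosen by the count of Parp14 insertions in sorted against unsorted cells of 1 of these screens, the one for post-transcriptional regulation (PTGR). In ORFtag a retroviral cassette brings its own PGK promoter, a neomycin resistance gene, the tag, and at its end a splice donor. Where it lands upstream of or inside a gene on the same strand, the tag is spliced to the next exon. If the reading frame fits, the cell makes the rest of the protein as a tagged fusion. Cassettes for the 3 reading frames were mixed in equal parts, and the insertion counts do not separate them. Every cell used was a diploid mouse embryonic stem cell of 1 clonal reporter line per screen, with a genotype otherwise given as wild-type. The activator line held a Puro-IRES-GFP reporter behind 7 TetO sites and the minimal pMYLPF promoter, in an expression-stable locus. The repressor line held the reporter in the same locus with 7 TetO sites between a pEF1-BFP unit and the pPGK promoter. In both of these screens the tag was TetR with a nuclear localization signal, and cells were sorted for GFP-positive or GFP-negative populations. The PTGR line carried a randomly integrated Puro-IRES-GFP reporter with 10 boxB sites after GFP and the inducible recombinase CreERT2, and the tag was LambdaN, an RNA-binding peptide that holds the fusion on the reporter mRNA. Its cells were sorted for low GFP several times, with expansion between the sorts. The boxB sites were then removed with Cre, and a last sort collected cells whose GFP had returned. The selection thus differed from that of the TetR screens. Each screen had 2 sorted libraries and 2 unsorted ones from cells before sorting, and the 6 unsorted libraries together served as the background. Libraries of 1 screen shared positions: 7.17% to 20.2% of a sorted library and 0.615% to 7.93% of an unsorted library were also listed in the other state. The lists hold genomic insertions and no expression, so they offer no check of the cell type.

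PARP enzymes transfer ADP-ribose from NAD+ to proteins and nucleic acids, some as long chains and others as a single unit. The nuclear members PARP1, PARP2 and PARP3 act at DNA breaks, whereas several other members belong to the interferon response and bind or modify RNA and viral proteins. PARP14 combines RNA-recognition motifs, macrodomains that bind ADP-ribose and a WWE domain with a catalytic domain that adds single ADP-ribose units. ZC3HAV1, also named PARP13 or ZAP, has lost catalytic activity. It binds CpG-rich RNA through CCCH zinc fingers and brings RNA to degradation machinery.

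A fusion can only start at an exon with a splice acceptor, so the exon to which an insertion is assigned gives the part of the protein that would carry the tag. At Parp14, on the minus strand at chr16:35832874-35871544 (GRCm38, 17 exons, 1817 residues), almost every insertion was assigned to exon 2. Shown here are the acceptors that took Parp14 insertions in the PTGR sorted cells, and the exon 2 acceptors of Zc3hav1 and Parp9, the other members with many insertions. Each run holds 20 intron bases in lower case and the first 10 exon bases in capitals, 5′ to 3′ on the strand of the gene, read from the RefSeq copy of the GRCm38 genome.
Parp14 exon 2, chr16:35866279-35866308, minus strand: ttttttttttaacatttcagTTCGGCAGAA
Parp14 exon 3, chr16:35865143-35865172, minus strand: tcttactgtttgggttttagGAGTCCAAGA
Parp14 exon 4, chr16:35863584-35863613, minus strand: gccatttccaaaattttcagGTGATTTGGA
Zc3hav1 exon 2, chr6:38340346-38340375, minus strand: gttgtcctctgtccttccagGAACCTCTGC
Parp9 exon 2, chr16:35941013-35941042, plus strand: ttctttctatctgttcccagAAACAGGCCA
The lower-case part of each ends in ag, the bases that close an intron, as it did at all 37 exon starts to which insertions in the 10 genes were assigned. All 1215 insertions assigned to the members in the 12 libraries pointed to an exon start of the GENCODE vM21 annotation. Parp14 exon 2 begins after 187 coding bases, so a fusion there, if in frame, leaves out the first 62 of 1817 residues and keeps the rest. At Zc3hav1 exon 2, 102 of 996 residues are left out. Exon 2 of Parp9 starts before any coding base, so that a fusion there would hold all 830 residues.

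Parp14 was the member with by far the most insertions in PTGR sorted cells. These libraries are the ones by which Parp14 was picked, and their values against the background are therefore given as a description without a test. Parp14 had 96 insertions in PTGR sorted replicate 1 and 107 in replicate 2, or 15.7 and 18.3 per 10000 insertions of the library. In the PTGR unsorted libraries it had 64 and 22 insertions, or 2.74 and 4.07 per 10000. In the activator unsorted libraries the level was 0.855 and 0.722 per 10000, and in the repressor unsorted libraries 1.03 and 0.735. Both PTGR sorted libraries thus lay above all 6 unsorted ones, and both PTGR unsorted libraries lay above the 4 from the other screens. The mean was 17.0 ± 1.79 per 10000 (SD, n = 2) in the sorted and 1.69 ± 1.39 (SD, n = 6) in the unsorted libraries. Pooled, 203 sorted stood against 147 background insertions, a log2 odds ratio of 3.56 (SE 0.16, counting error only). By number of sorted insertions Parp14 ranked 7 and by odds ratio 18 among the 62 genes called enriched in this screen (0.666% of 9303 genes tested).

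Several settings changed the size of this value. Against only the PTGR unsorted libraries, the log2 odds ratio was 2.51. Some positions lay within 10 bp of the next on the same strand. With these counted as 1 insertion, 79 and 80 sorted insertions remained and the log2 odds ratio was 3.27. The replicates were close, at 3.45 (SE 0.19) and 3.67 (SE 0.18) against the whole background, and 2.53 (SE 0.23) and 2.17 (SE 0.34) against the unsorted library of the same number.

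**Figure D1:**
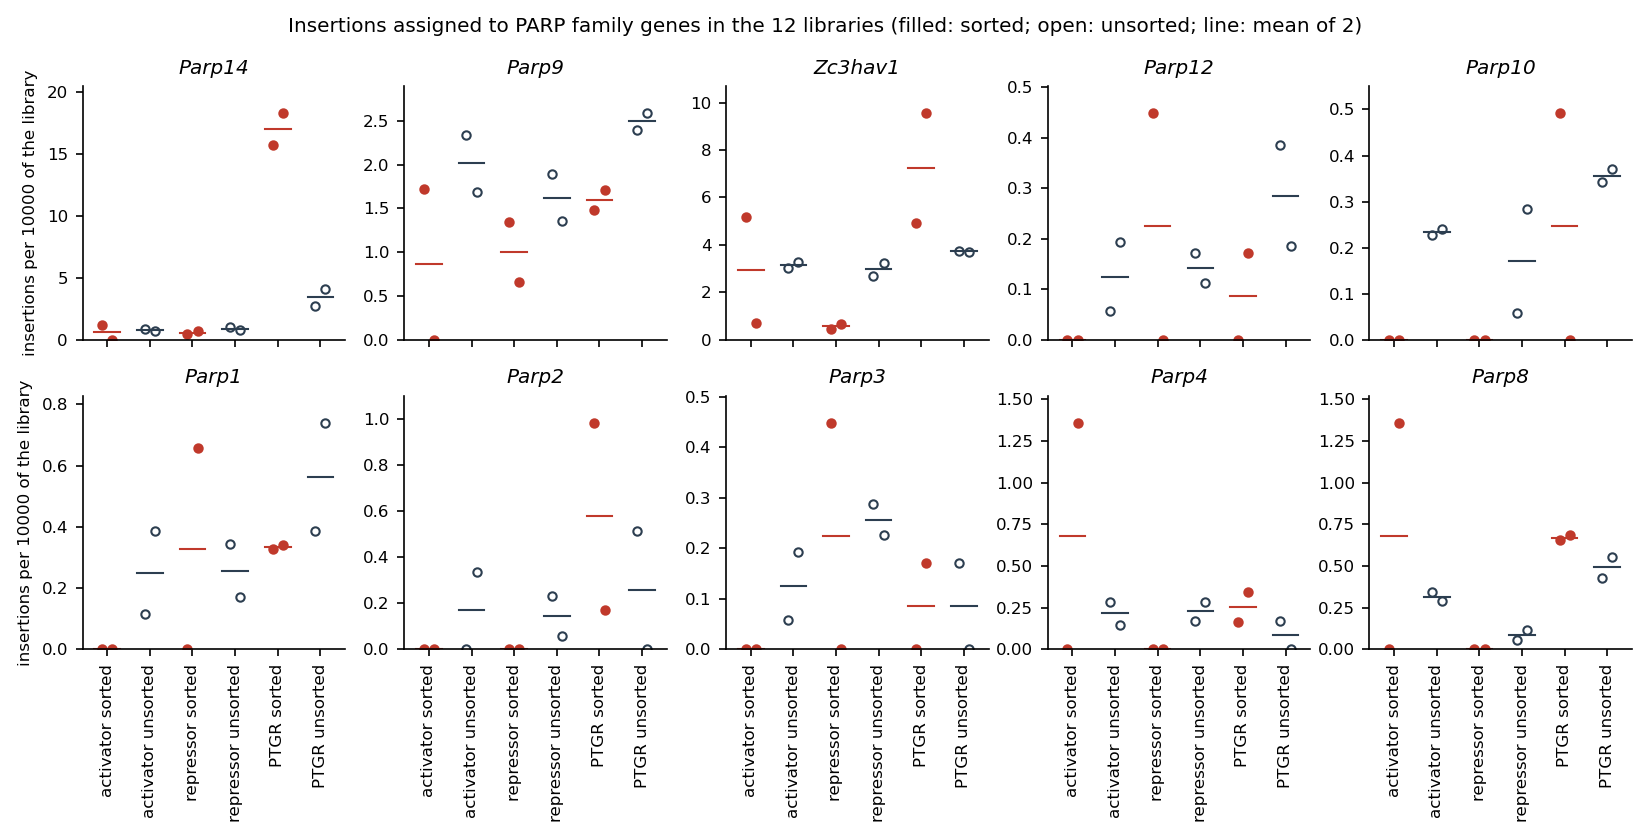
Insertions assigned to each of the 10 genes, per 10000 insertions of the library, on a linear axis that starts at 0 and differs between genes. Each point is 1 library (filled, sorted; open, unsorted) and each line the mean of 2. Parp14 is at 15.7 and 18.3 in the PTGR sorted libraries and at most 4.07 in every other library, whereas Zc3hav1 is at 4.92 and 9.56.

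The insertions at Parp14 were many and mostly separate events. The sorted replicates held 194 distinct positions between them, of which 9 were in both (9.38% of replicate 1 and 8.41% of replicate 2). Positions were also shared with unsorted cells of the same number. Replicate 1 shared 36 positions with PTGR unsorted replicate 1, 37.5% of the sorted and 56.2% of the unsorted positions. Replicate 2 shared 9 with PTGR unsorted replicate 2, 8.41% of the sorted and 40.9% of the unsorted ones. Across the numbers 2 and 5 positions were shared. The libraries of 1 number therefore held many of the same positions, and those pairs are not independent at this gene. Without every position found in both states of a screen, 152 sorted stood against 97 background insertions at Parp14, with a log2 odds ratio of 3.93. Shared positions were 24.2% of the distinct PTGR sorted and 55.3% of the distinct PTGR unsorted ones. Leaving them out takes a larger share of the background, so the rise from 3.56 is not read as a result.

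Of the Parp14 insertions in PTGR sorted cells, 200 of 203 were assigned to exon 2 (98.5%, 95% Wilson interval 95.7 to 99.5). Exon 3 took 2 and exon 4 took 1, all 3 in replicate 1. In the background exon 2 took 140 of 147 (95.2%, 90.5 to 97.7), and the other 7 went to exon 4, exon 5, exon 6, exon 7, exon 13 and exon 15. Exon 2 thus predominated in the insertions before sorting as well. In activator and repressor sorted cells all 4 insertions went to exon 2. No sorted insertion in any screen was assigned to an exon past exon 4, where 120 residues precede the exon, while 6 background insertions were. This is a description, since exon assignment at Parp14 was part of how the gene was chosen.

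The positions behind exon 2 lay around the gene start and in intron 1. Within 5 kb of the gene start were 171 of 203 sorted insertions (84.2%, 78.6 to 88.6) and 106 of 147 background insertions (72.1%, 64.4 to 78.7). The sorted replicates differed in this, with 72.9% in replicate 1, close to the background, and 94.4% in replicate 2. Between the ends of the gene lay 135 sorted insertions (66.5%, 59.8 to 72.6) and 83 background insertions (56.5%, 48.4 to 64.2). The share moved between sorted replicates from 57.3% to 74.8%, more than it moved between states. More than 10 kb upstream, in sequence with no protein-coding gene, were 29 sorted insertions, and 23 of them came from replicate 1. Per 10000 insertions of the library, sorted cells held 11.3 within the gene against 0.812 in the background, and 5.69 upstream of it against 0.626. Both classes of position were higher after the PTGR sort.

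**Figure D2:**
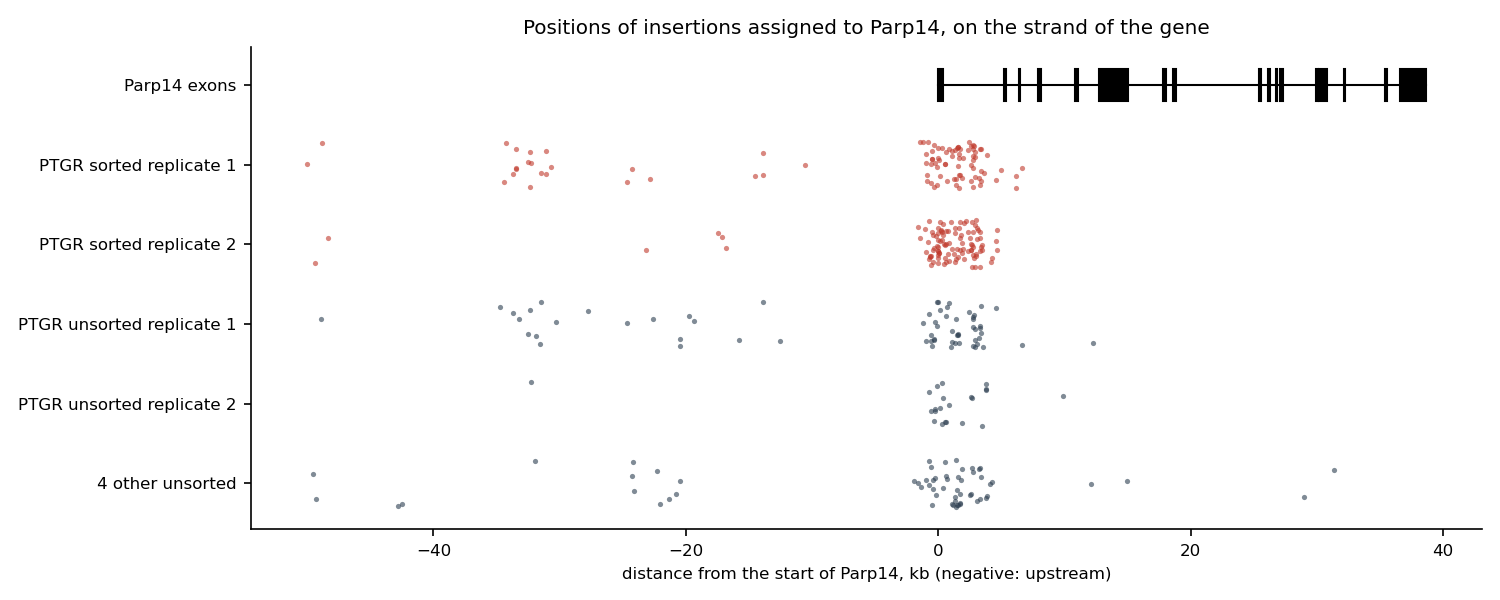
Insertions assigned to Parp14, placed by their distance in kb from the gene start (x axis) in PTGR sorted, PTGR unsorted and the 4 other unsorted libraries; vertical scatter within a row has no meaning, and black boxes are the 17 exons. Most points lie around the start and in the first intron, and a second set lies more than 10 kb upstream, with 29 insertions in the sorted libraries.

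Parp14 also differed between the screens before sorting. These unsorted libraries were part of the background in the contrast that picked Parp14, so their levels are a description with no test. PTGR unsorted cells held 3.40 ± 0.94 Parp14 insertions per 10000 (SD, n = 2), and the activator and repressor unsorted cells 0.836 ± 0.144 (SD, n = 4), and the groups did not overlap. Without positions that a sorted library of the same screen also listed, a setting chosen after seeing the data, PTGR unsorted replicates 1 and 2 held 26 and 12 insertions, or 1.18 and 2.41 per 10000. The other unsorted libraries then held 0.690 to 0.989. The groups lay closer with these positions left out, but still did not overlap. How many of all genes separate in this way was not counted, so the lack of overlap is not read as a result. PTGR sorted cells held 203 Parp14 insertions, and the activator and repressor sorted cells held 2 each. This setting could thus take many positions only from the PTGR unsorted libraries. The narrowing is tied to the sorted counts by which Parp14 was picked, and nothing is read from it. On the log2 scale the fold change fitted by edgeR was 1.93 with all positions and 0.90 without the shared ones. For Parp9 and Zc3hav1, the other members kept by its filter on low counts, it was 0.45 and 0.30 with all positions. By edgeR's quasi-likelihood test over all 5519 genes, 11 genes were called higher in the PTGR unsorted libraries (0.199%) and 3 lower (0.0544%). No call is given for Parp14, which was picked on these libraries. The tag, the cell line and the screen differ together between these libraries, and their parts cannot be told apart.

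**Figure D3:**
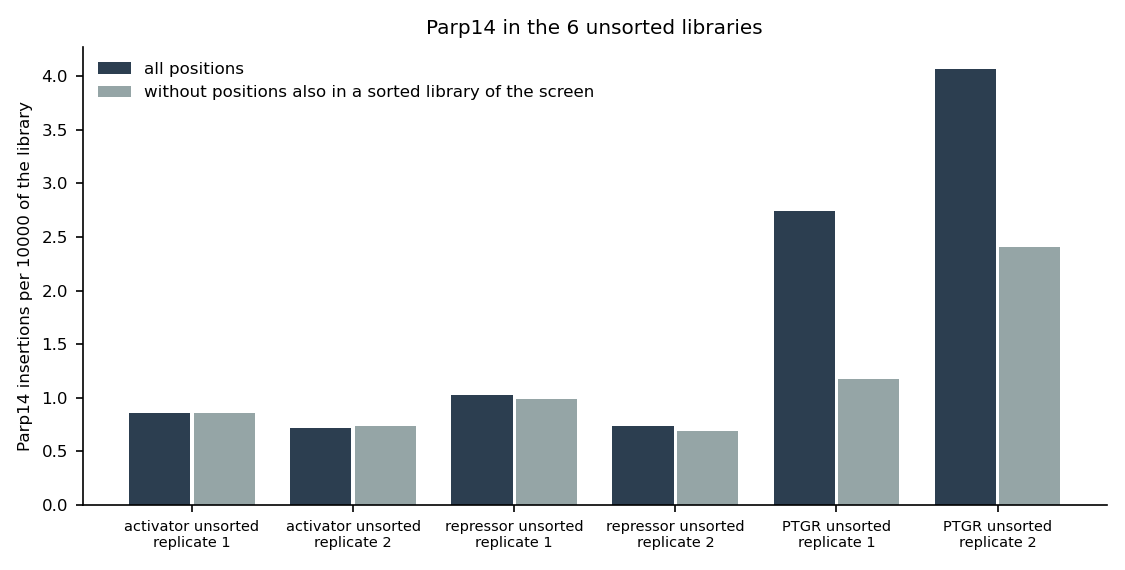
Parp14 insertions per 10000 insertions of each of the 6 unsorted libraries (y axis from 0), with all positions (dark bars) and without those that a sorted library of the same screen also listed (light bars). The PTGR libraries stand at 2.74 and 4.07 with all positions and at 1.18 and 2.41 without shared ones. The other 4 change little, as sorted cells of their screens held few Parp14 insertions that could be shared.

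In the TetR screens Parp14 was rarely seen after sorting. It had 2 insertions in activator sorted replicate 1, 0 in replicate 2, and 1 in each repressor sorted replicate. The log2 odds ratio against the background was -1.21 (SE 1.03) in the activator and -1.43 (SE 1.03) in the repressor screen. With under 3 sorted insertions it was not tested for enrichment. For depletion, the adjusted p of the one-sided Fisher's exact test was 0.96 in the activator and 0.55 in the repressor screen. The 95% intervals were -3.22 to 0.81 and -3.44 to 0.58. Of the 147 background insertions, 86 came from the PTGR unsorted cells, and against only the unsorted libraries of the same screen the values were closer to 0, at -0.33 and -0.73. The difference between the activator and repressor effects was 0.04 on the log2 scale (edgeR, adjusted p = 1).

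An insertion in the opposite orientation cannot fuse the tag to the gene, and the lists with the strand reversed count these. At Parp14 they numbered 5 and 3 in PTGR sorted cells, or 0.838 and 0.518 per 10000, against 0.372 to 1.03 in the 6 unsorted libraries. The reversed insertions at Parp14 thus lay within the range of unsorted cells while the sense ones lay above it. Parp9 appeared to do the opposite, with 101 and 115 reversed insertions in PTGR sorted cells, or 16.9 and 19.8 per 10000. Of these 216, 203 were the Parp14 sense insertions themselves. Parp9 lies on the plus strand at chr16:35938470-35972605, pointing away from the minus-strand Parp14, and in all 12 libraries each of the 354 Parp14 sense insertions was assigned to Parp9 once its strand was turned. The other 13 reversed Parp9 insertions are all that remained for that gene in PTGR sorted cells.

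PARP9 has macrodomains and forms a complex with the ubiquitin ligase DTX3L, whose gene shares its promoter region. Sense insertions at Parp9 numbered 9 and 10 in PTGR sorted cells, or 1.48 and 1.71 per 10000. The unsorted libraries ran from 1.36 to 2.59, so that the sorted values fell inside their range. The pooled log2 odds ratio was -0.32 (SE 0.35), given without a test. Activator sorted cells held 3 and 0 Parp9 insertions and repressor sorted cells 3 and 1. Their log2 odds ratios were -1.09 (SE 0.84) and -0.90 (SE 0.73), and neither enrichment (Fisher's exact test, adjusted p = 1 in both) nor depletion (adjusted p = 0.96 and 0.641) was called. Parp9 insertions were spread over more exons than those of Parp14: of 203 in the background, 116 were assigned to exon 2, 40 to exon 9 and 21 to exon 10. Of the 19 in PTGR sorted cells, 12 went to exon 2 and 3 to exon 9. Exon 9 follows 595 residues, so fusions there lack most of the protein.

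The stretch of 200 kb on either side of Parp14 held 6 protein-coding genes other than Parp9. None of Sema5b, Dirc2, Hspbap1, Dtx3l, Kpna1 and Fam162a was called enriched or depleted in the PTGR screen. Their log2 odds ratios ran from -0.95 at Dirc2 to 0.51 at Kpna1. Dtx3l, which lies between Parp14 and Parp9 and on the strand of Parp14, had 10 and 11 sorted insertions, with a log2 odds ratio of 0.26 (SE 0.34, Fisher's exact test, adjusted p = 0.765). The high level at Parp14 was thus not shared by the genes beside it.

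Zc3hav1 was the second member with a raised level in PTGR sorted cells, again given as a description. It had 30 and 56 insertions, or 4.92 and 9.56 per 10000, against 2.70 to 3.76 in the 6 unsorted libraries. Both sorted libraries lay above the unsorted range, with a difference between them of nearly the size of the lower one. The share of all genes that lie above it in this way was not counted. The pooled log2 odds ratio was 1.14 (SE 0.17), which made Zc3hav1 number 61 by odds ratio among the 62 enriched genes. It was 0.59 (SE 0.28) in replicate 1 and 1.55 (SE 0.21) in replicate 2. With positions within 10 bp merged it was 0.82, and against the PTGR unsorted libraries alone 0.94, both under the threshold of 1. Without positions found in both states of a screen it was 1.10. Reversed insertions at Zc3hav1 numbered 25 in the sorted cells, or 2.13 per 10000 against 2.85 in the background.

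**Figure D4:**
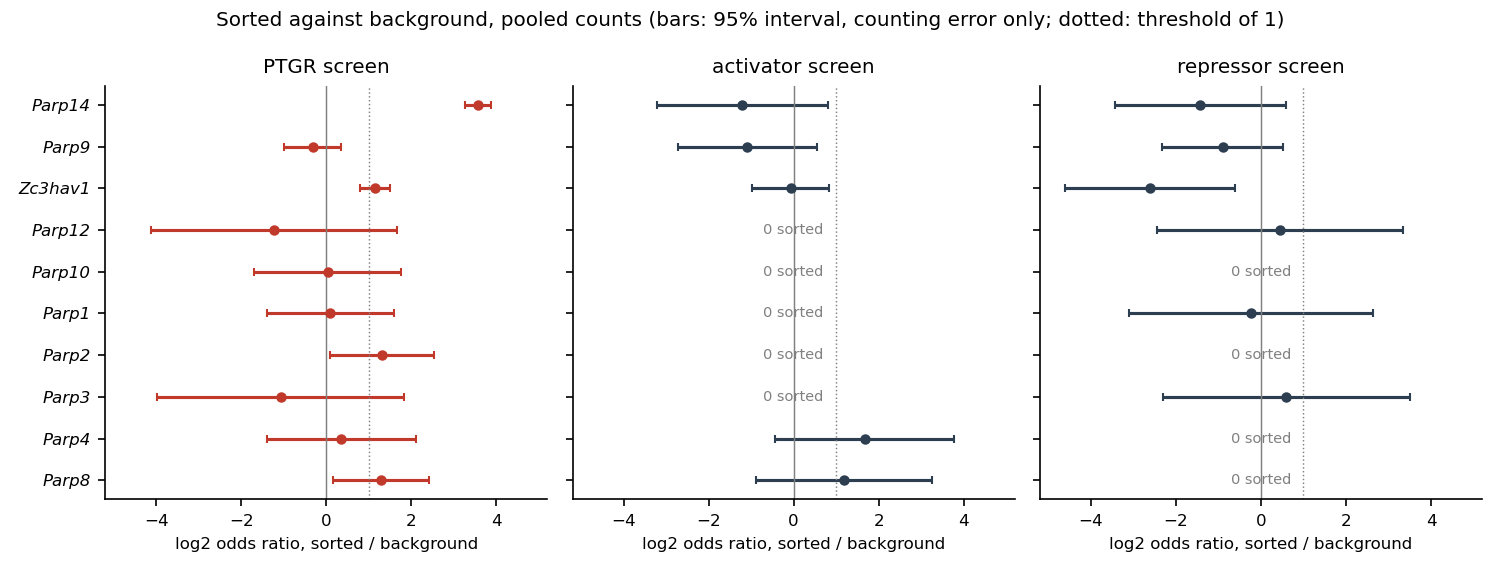
Log2 odds ratio of pooled sorted against background insertions (x axis) for the 10 genes in each screen, with 95% intervals from counting error only; the dotted line marks the threshold of 1, and genes with 0 sorted insertions carry no point. Parp14 at 3.56 stands apart in the PTGR screen, and no interval of a TetR screen lies wholly above 0.

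At Zc3hav1 the share of insertions that lay within the gene was higher in the PTGR sorted libraries, which is again a description. Within the gene, on the minus strand at chr6:38305286-38354603, lay 16 of 30 insertions in PTGR sorted replicate 1 (53.3%, 36.1 to 69.8) and 38 of 56 in replicate 2 (67.9%, 54.8 to 78.6). In PTGR unsorted cells 15 of 108 lay there (13.9%, 8.60 to 21.7), and in the 4 other unsorted libraries 25 of 225 (11.1%, 7.64 to 15.9). The Wilson intervals cover the counting of single insertions and not the spread between libraries. Per 10000 insertions of the library, sorted cells held 4.52 within Zc3hav1 against 0.391 in the background, but 2.68 upstream of it against 2.87. The raised level thus lay within the gene (2.62 and 6.49 in the replicates), while upstream positions stood at 2.3 and 3.07. Nearly all of both classes were assigned to exon 2, with 84 of 86 in the sorted cells (97.7%, 91.9 to 99.4) and 331 of 333 in the background (99.4%, 97.8 to 99.8), so that both would leave the same residues on the tag. At Parp14 upstream and internal positions were both higher in sorted cells. Why the genes differ in this was not tested, and the shares were compared after their values were seen.

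**Figure D5:**
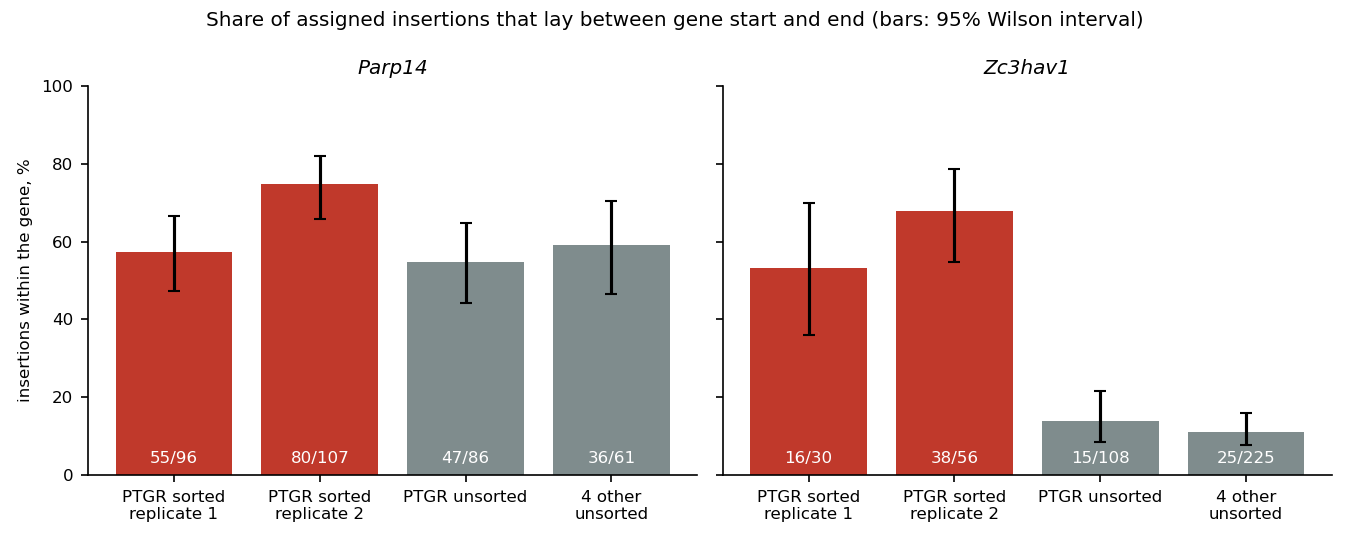
Share of the insertions assigned to Parp14 and Zc3hav1 that lay between the start and end of the gene, in % (y axis, 0 to 100), in each PTGR sorted replicate, the PTGR unsorted pair and the 4 other unsorted libraries; error bars are 95% Wilson intervals and the numbers are counts. At Zc3hav1 the sorted shares are 53.3% and 67.9% against 13.9% and 11.1% in unsorted cells, while the Parp14 shares lie between 54.7% and 74.8% in all 4 sets.

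In the repressor screen Zc3hav1 had 1 insertion in each sorted replicate, 0.449 and 0.658 per 10000, below all 6 unsorted libraries. The log2 odds ratio was -2.61 (SE 1.02), and depletion had an unadjusted p of 0.000511 (Fisher's exact test, one-sided). The adjusted p of 0.0377 missed the threshold of 0.001, and by edgeR the adjusted p was 0.321. Depletion was called for 10 of 12033 genes in this screen (0.0831%). In the activator screen the replicates disagreed, with 9 insertions (5.17 per 10000) and 1 insertion (0.680 per 10000). Pooled, the log2 odds ratio was -0.06 (SE 0.46), and without activator sorted replicate 2 it was 0.67. The activator and repressor effects on Zc3hav1 differed by 2.08 on the log2 scale (edgeR, adjusted p = 0.363).

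The other 7 members had few insertions anywhere. Their background counts ran from 18 at Parp3 to 32 at Parp1, or 0.176 to 0.313 per 10000, close to the median gene with 15 insertions. Zc3hav1 with 333, Parp9 with 203 and Parp14 with 147 were far better covered, and lay above 97.6%, 93.9% and 90.5% of all genes. Differences at the 7 genes would have had to be large to be visible.

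Parp12 is a relative of Zc3hav1 with CCCH zinc fingers and WWE domains that keeps catalytic activity. It had 0 and 1 insertions in PTGR sorted cells against 20 in the background, a log2 odds ratio of -1.23 (SE 1.48). Parp10, a transferase of single ADP-ribose units, had 3 and 0 against 25, at 0.04 (SE 0.88). Neither interval excluded a change of several fold in either direction.

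Among the PARPs of DNA repair, Parp1 had 2 and 2 PTGR sorted insertions against 32 in the background (log2 odds ratio 0.10, SE 0.77). Parp2 had 6 and 1 against 24 (1.32, SE 0.62). Parp3 had 0 and 1 against 18 (-1.07, SE 1.48). The value of Parp2 came from replicate 1, and without it the log2 odds ratio was -0.46. Against the PTGR unsorted libraries alone it was 0.49. Fusions of Parp2 at exon 2, which took all of its insertions, leave out 13 of 559 residues, and those of Parp1 at exon 2 leave out 40 of 1014.

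Parp4, the PARP of vault particles, had 1 and 2 PTGR sorted insertions against 20 in the background (log2 odds ratio 0.36, SE 0.89). Parp8 had 4 and 4 against 28 (1.29, SE 0.58). At Parp8 both sorted libraries, at 0.656 and 0.683 per 10000, lay above the unsorted range of 0.0574 to 0.555, though on 8 insertions. Nothing is read from this, since the share of all genes above their range was not counted. The log2 odds ratio of Parp8 depended on the setting: it was 0.57 against the PTGR unsorted libraries alone, 0.54 by DESeq2 and 2.5 with only insertions within 50 kb counted. Of the 10 members, 2 met the criteria for enrichment in the PTGR screen and 0 those for depletion, beside 0.666% and 0.0914% of all genes tested; nothing is read from this, since the screen served to choose them.

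Neither TetR screen called any member. In the activator screen 2 of 10 members had the 3 sorted insertions needed for the enrichment test and 0 were called by the Fisher test, beside 4.64% of all genes tested. In the repressor screen 1 was tested and 0 called, beside 8.18%. All 10 were tested for depletion in both, with 0 called, beside 0 of 12033 genes in the activator screen. Sorted cells held 0 insertions of 5 members in the activator screen (Parp12, Parp10, Parp1, Parp2 and Parp3) and of 4 in the repressor screen (Parp10, Parp2, Parp4 and Parp8). A count of 0 allows up to 0.935 per 10000 in the activator and 0.801 in the repressor screen, above the background level of each of these genes, so that a loss was not detectable at this depth. Parp4 and Parp8 each had 2 activator sorted insertions, all in replicate 2, with log2 odds ratios of 1.67 (SE 1.07) and 1.19 (SE 1.06). For reversed insertions, no member was called in either screen by the Fisher test, beside 3.14% of genes in the activator and 5.61% in the repressor screen. The lowest adjusted p there was 0.893, at Parp8 in the activator screen.

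The rest of the family is described from lists. Of 6 other PARP genes, 5 were tested for enrichment in the PTGR screen and 0 called by the Fisher test. With 0.666% of all genes tested called, 0 of so few genes says nothing about the family. The median log2 odds ratio was -0.47 against 0.14 over all genes tested. Tiparp, another transferase of single ADP-ribose units, had the most sorted insertions, with 17 and 10 against 277 in the background (-0.26, SE 0.29). In the repressor screen Tiparp was low like Zc3hav1, with 1 and 0 sorted insertions (-3.34, SE 1.45). Its depletion there was not called either (Fisher's exact test, adjusted p = 0.0377, and 0.235 by edgeR). Of 18 genes for removal or reading of ADP-ribose and for partners of PARPs, 8 were tested and 0 called, beside the same 0.666%, with a median of 0.08. Adprh, a hydrolase that takes ADP-ribose off arginine, led them with 12 and 10 against 202 (-0.10, SE 0.32). In the activator screen 2 and 4 genes of these lists were tested for enrichment and 0 called, beside 4.64% of all genes tested. In the repressor screen 3 and 5 were tested and 0 called, beside 8.18%. For depletion 6 and 11 were tested in each screen and 0 called, beside 0% in the activator and 0.0831% in the repressor screen. Nothing is read from so few genes.

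Among 10 cofactors of Zc3hav1 and RNA decay genes, a list drawn up with the Trim25 result known, 9 were tested in the PTGR screen and 2 were called enriched, beside 0.666% of all genes tested. The count is no independent evidence, since 1 of the 2 was the reason for the list. Trim25, the ubiquitin ligase that ZAP needs for its antiviral activity, had 162 and 57 PTGR sorted insertions against 137 in the background of all 6 unsorted libraries. That was 18.3 against 1.34 per 10000, a log2 odds ratio of 3.78 (SE 0.16). Its values are a description without a test, since its enrichment here was known when the list was made. The log2 odds ratio was 2.71 against the PTGR unsorted libraries alone, 2.86 without sorted replicate 1 and 4.57 without PTGR unsorted replicate 1. The log2 fold change was 3.13 by DESeq2, which did not call the gene, and 2.99 by edgeR, which did. Neither outcome is read as a result. Khnyn, an endonuclease partner of ZAP, had 6 and 7 against 17 (2.71, SE 0.53). It is also given as a description, since the list was drawn up with earlier results of these data known. Its call was lost without either sorted replicate, against the PTGR unsorted libraries alone and without the repressor unsorted libraries. The log2 odds ratio of Khnyn stayed between 2.38 and 2.85 in these settings. The median of the tested genes of the list was 0.08, and in the activator screen 3 were tested and 0 called, beside 4.64% of all genes tested. N4bp1, an endonuclease related to Khnyn, was not called in the PTGR screen (-0.35, SE 0.27, adjusted p = 1) but was called in the repressor screen, as 1 of 2 tested genes of the list beside 8.18% of all genes tested, with 66 and 35 sorted against 348 background insertions (2.99, SE 0.16, adjusted p = 1.20e-48).

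The genes whose level moved most like that of Parp14 over the 12 libraries were Gm5485, Cnot2, Mib2, Pde9a and Tnip1. Their Pearson correlations of log2(insertions per 10000 + 0.1) with Parp14 ran from 0.910 to 0.956 among 5887 genes with at least 50 insertions, and that of Zc3hav1 was 0.757. These are descriptions over 12 libraries that share 6 groups, and the 2 PTGR sorted libraries weigh most in them. PTGR sorted and background insertions numbered 545 and 406 at Gm5485, 154 and 105 at Cnot2, and 153 and 166 at Mib2. They numbered 85 and 95 at Pde9a and 120 and 213 at Tnip1. Cnot2 is a subunit of the CCR4-NOT deadenylase, which shortens mRNA tails. Gm5485 was flagged by the study in this screen for reversed insertions, as a hit to be taken with caution. Whether these genes share a function with Parp14 was not tested.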

How the data were processed

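The authors mapped insertions by inverse PCR, trimmed reads with Trim Galore 0.6.0, aligned them to mm10 with Bowtie2, removed duplicates with SAMtools 1.9, and gave every insertion the closest exon lying downstream in a protein-coding GENCODE transcript, first exons left out. The deposited lists give positions, exon numbers and distances for 12 libraries, with the strand as mapped and reversed. The authors also deposited counts per gene, pooled over libraries, with their own odds ratios, adjusted p-values and hit calls, which were not used. Here each position within 200 kb of its exon was counted once per library. Depth was 14705 to 22266 insertions in TetR sorted, 58560 to 60980 in PTGR sorted and 54088 to 233799 in unsorted libraries.

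For each screen the summed sorted libraries were compared with the 6 unsorted libraries (1022126 insertions) by one-sided Fisher's exact tests per gene with Benjamini-Hochberg adjustment, over genes with at least 3 sorted insertions (enriched: adjusted p below 0.001, log2 odds ratio at least 1) or at least 10 background insertions (depleted: at most -1). The sums leave out the spread between replicates, so edgeR 4.0.16 and DESeq2 1.42.0 were run on libraries of each screen. Intervals cover counting error only, since daughter cells and PCR copies are not independent. Replicates are given by the study as biological. The study's annotation release was not used here, and locations are from GENCODE vM21.

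The members and gene lists were chosen with earlier results of these data known. Members were all named, list genes where called or with the most PTGR sorted insertions.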

Additional observations from a re-analysis of the deposited data

Results flagged for a closer look

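Of 20 sets of 6 unsorted values checked for a value far from the others (10 genes, sense and reversed), 1 was marked, about what chance gives at 1 in 20. Reversed insertions at Parp8 stood at 0.930 per 10000 in PTGR unsorted replicate 2, from 5 insertions, and the gap to the next library took up 0.65 of the range of the 6.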

How the results depend on the processing

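Of the counts of called genes and the exon share at Parp14, 72 of 101 recomputed values stayed within 1.5 times the main value (or within the spread between replicates). The 72 include the depleted genes of the activator screen, which numbered 0 in the main test and in every other setting and so say little about stability. Against the background of the same screen the PTGR screen gave 40 enriched and 3 depleted genes in place of 62 and 11. Enriched genes there numbered 33 by edgeR, 31 with a replicate block and 15 by DESeq2, and depleted genes 0 by all 3. Depleted PTGR genes numbered 6 within 50 kb, 21 with every listed line counted and 6 with positions within 10 bp merged. Counting every line weighs the libraries unequally. In both repressor unsorted lists 100% of positions were repeated, with 474850 lines for 237410 positions in replicate 1. In PTGR sorted replicate 2 it was 12.7%. In the repressor screen depleted genes, 10 in the main test, numbered 0 with merged positions, 22 with at least 20 background insertions, 21 without the repressor unsorted libraries, 1 by edgeR with or without the block, and 0 by DESeq2. Leaving out 1 library at a time gave 48 to 68 enriched and 0 to 15 depleted genes in the PTGR screen, and 0 to 18 depleted genes in the repressor screen. The comparison of unsorted libraries called 34 genes without the filter on low counts, 9 with the replicate block, 3 by DESeq2, 3 without shared positions and 4 to 18 with 1 library left out, in place of 14. The cause of these changes was not tested.

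Signs turned for some members. Zc3hav1 in the activator screen (-0.06) was at -2.26 to 0.67 with 1 library left out (0.67 without activator sorted replicate 2), 0.33 by edgeR, 0.31 with the replicate block and 0.13 by DESeq2. Parp9 in the repressor screen was at 0.21 by edgeR and 0.18 with the block. Parp1 in the repressor screen was at 0.06 against its own background, -0.36 to 1.07 with 1 library left out (1.07 without sorted replicate 1) and 0.41 by DESeq2. In the PTGR screen Parp10 was at -0.47 against its own background, -0.17 without the repressor unsorted libraries and -0.44 by DESeq2, and Parp1 at -0.43, -0.03 and -0.61, and at -0.09 without shared positions. With 1 library left out, Parp2 ran from -0.46 (without sorted replicate 1) to 2.07 and Parp4 from -0.25 (without sorted replicate 2) to 0.80. Parp14 stayed between 2.44 and 4.01 in the PTGR screen.

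Replicate numbers are shared by sorted and unsorted libraries, but no label says that they mark a pair. Deviations of same-numbered libraries from their group means correlated across genes at 0.06, -0.02 and 0.29 in the activator, repressor and PTGR screens. Of the PTGR sorted replicate 1 positions, 18.2% were in unsorted replicate 1 and 0.342% in replicate 2. For sorted replicate 1 of the activator screen these shares were 4.96% and 2.25%. In the repressor screen they went the other way, at 8.17% and 9.86%. The replicate block changed no call at a member in the activator and repressor comparisons. Under it N4bp1 (repressor, adjusted p = 1.46e-29) was still called by edgeR.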
